A study of Mus musculus with 6 samples.

Results

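The genes of the proteasome, the protease that breaks down ubiquitin-tagged proteins, were followed in bone marrow stem and progenitor cells that differ in their labelled dose of the ETS transcription factor ERG. Members were all genes whose single symbol in the array's probe table starts with Psma, Psmb, Psmc, Psmd or Psme and a digit, each represented by its probe set with the highest mean over the 6 arrays. The rule found 44 of 18193 genes, of which 43 were bright enough to be tested among 10824. The cells came from 3 adult mice (278, 279 and 281) of mixed 129-B6 background and genotype Mx1Cre;Ergkd/+;R26Y. Every cell thus derives from an animal with 1 Erg knockdown allele, a Cre recombinase under the interferon-responsive Mx1 promoter and a Rosa26 reporter that makes yellow fluorescent protein (YFP) after recombination. From each mouse, YFP-positive cells, labelled as restored to wild-type Erg, and YFP-negative cells, labelled as having about 40% less Erg, were sorted inside the LSK gate (lineage-negative, Sca-1 and c-Kit positive). Since cells were separated by YFP, Erg dose as labelled, past Cre activity and the kinds of cell that Cre had spared cannot be told apart. Levels are linear probe set intensities as deposited. A difference is the knockdown-labelled value less the restored-labelled one after log2(intensity + 16), given ± its standard error from a limma fit with the mouse as a block. In RNA from sorted populations, fewer cells of a type and less RNA per cell cannot be told apart.

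The proteasome is a barrel-shaped core closed at one or both ends by a cap. The core is built of stacked rings of alpha subunits (Psma genes), which gate the channel, and beta subunits (Psmb genes), of which Psmb5, Psmb6 and Psmb7 encode the proteolytic sites. The cap holds a ring of ATPases (Psmc genes) that unfold substrates, and further base and lid subunits (Psmd genes) that bind and remove ubiquitin. In cells exposed to interferon, and constitutively in many blood cells, Psmb8, Psmb9 and Psmb10 take the places of Psmb5, Psmb6 and Psmb7 and form the immunoproteasome, which yields peptides for presentation on MHC class I. NFE2L1 is known to raise proteasome genes together when proteasome activity is short.

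Proteasome genes differ in the letters that precede their start sites. RefSeq promoter windows of assembly GRCm38.p6 were matched for 37 of the 44 members (3 of them with more than 1 window), and the 250 bases before each start were searched on both strands. The letters GGAAGT, a form of the sequence bound by ETS family proteins such as ERG, are called the ETS core here. They stood in 15 of the 40 member windows (37.5%). By role these letters were in 9 of 15 windows of cap genes (60.0%, 8 of the 14 cap genes with a window). In windows of core genes they stood in 3 of 12 (25.0%). The share of all 32851 windows of that length was 19.7%. None of the 3 windows of Psmb8, Psmb9 and Psmb10 held these letters, and shorter or other forms of the ETS sequence were not searched. The antioxidant response element core TGACNNNGC, bound by NFE2L1 and NFE2L2, stood in the windows of Psmb5, Psmb6, Psmc6, Psmd9 and Psmd12, which is 12.5% of the 40 member windows against 10.2% of all windows. The CCAAT box stood in 40.0% of member windows and 33.8% of all, and the interferon-stimulated response element core in 7.5% and 2.98%, but in none of the 3 immunoproteasome windows. The gamma-activated core TTCNNNGAA was found in 1 member window, that of Psmb8, and in 7.02% of all. A match is a description of the letters and shows no binding, and ERG binding was not measured here. Windows are shown for the catalytic subunit gene Psmb5 and its inducible counterpart Psmb8, and for the lid genes Psmd12 and Psmd13 as cap genes that hold the ETS core. All run 5′ to 3′ on the gene's strand and end at the base before the start, with matched letters in capitals. The Psmb5 window is chr14:54617996-54618245 (minus strand), with TGACGTCGC at 47 to 39 bases before the start. The Psmb8 window is chr17:34197945-34198194 (plus strand), with TTCCCAGAA at 97 to 89 bases. The Psmd12 window is chr11:107479278-107479527 (plus strand), with the antioxidant core in reverse at 247 to 239 bases and the ETS core in reverse at 18 to 13 bases. The Psmd13 window is chr7:140882144-140882393 (plus strand), with the ETS core at 90 to 85 bases.
Psmb5: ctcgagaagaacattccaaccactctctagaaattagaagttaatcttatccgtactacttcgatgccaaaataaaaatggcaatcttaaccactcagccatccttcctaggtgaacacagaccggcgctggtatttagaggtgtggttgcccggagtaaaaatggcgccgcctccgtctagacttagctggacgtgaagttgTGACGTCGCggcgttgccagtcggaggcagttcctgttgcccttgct
Psmb8: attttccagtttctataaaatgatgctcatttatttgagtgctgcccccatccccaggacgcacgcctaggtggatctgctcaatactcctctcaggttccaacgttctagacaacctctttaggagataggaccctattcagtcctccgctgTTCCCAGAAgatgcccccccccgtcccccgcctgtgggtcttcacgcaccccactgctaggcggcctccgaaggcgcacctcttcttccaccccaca
Psmd12: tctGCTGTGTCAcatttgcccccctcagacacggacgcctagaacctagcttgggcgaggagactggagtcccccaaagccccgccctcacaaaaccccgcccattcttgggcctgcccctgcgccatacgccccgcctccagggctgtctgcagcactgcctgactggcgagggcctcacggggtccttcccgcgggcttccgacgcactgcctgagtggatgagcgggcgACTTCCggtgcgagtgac
Psmd13: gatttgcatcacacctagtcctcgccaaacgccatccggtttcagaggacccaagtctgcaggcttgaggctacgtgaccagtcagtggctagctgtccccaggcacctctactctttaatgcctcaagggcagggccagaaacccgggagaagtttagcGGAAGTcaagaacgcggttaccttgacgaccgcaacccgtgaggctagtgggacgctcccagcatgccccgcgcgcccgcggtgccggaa

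Mean intensity lay between 1031 and 1071 on the 6 arrays. The median intensity was 135, 139 and 144 on the restored-labelled arrays of mice 278, 279 and 281 and 157, 143 and 153 on the knockdown-labelled ones, higher in the knockdown-labelled array of each mouse. The restored-labelled array of mouse 279 stood apart: its mean 3' over 5' log2 ratio at the Actb and Gapdh control probe sets was 0.71, against 0.47 to 0.54 on the other 5, and it was the highest of the 6 arrays for 38.9% of all genes tested. Its summed neutrophil marker intensity (9 genes) was the lowest at 16742 and that of its knockdown-labelled partner the highest at 49847. The restored-labelled arrays spanned 16742 to 44912 and the knockdown-labelled ones 24278 to 49847, and all 9 of these markers were above the filter. The summed B and plasma cell markers (9 genes, 6 above the filter, Pax5 below it on every array) spanned 15380 to 16627 in the restored-labelled and 19894 to 31396 in the knockdown-labelled arrays. Of these Ighm (1168 to 3215 against 4046 to 11129), Jchain, Sdc1 and Mzb1 were higher in the knockdown-labelled array of each mouse. Cd79a, whose mean lay below the filter (92 to 171 on the 6 arrays), was also higher in each mouse. Cd79b was lower in each (2455 to 2709 against 2321 to 2580), and Xbp1, Ms4a1 and Pax5 were mixed. The summed megakaryocyte markers (6 genes, all above the filter) were lower in the knockdown-labelled array of each mouse, at 8365, 10728 and 10398 against 8053, 8130 and 7538, with the restored-labelled array of mouse 279 the highest, as for most members. The groups overlapped in the sums of the T and NK cell, macrophage, dendritic cell and erythroid markers. Of the LSK genes, Kit read 4374, 3972 and 4572 in the restored-labelled and 5206, 5131 and 4670 in the knockdown-labelled cells, without overlap, and Cd34 was also higher in the knockdown-labelled array of each mouse (8800 to 9268 against 9090 to 9512). The summed LSK markers (6 genes) spanned 32065 to 33286 and 34495 to 36671. The part of these markers and of the array medians in the results was not tested. Erg itself did not separate the groups, so groups are named by their labels. Its brighter probe set gave a difference of 0.024 ± 0.080 (adjusted p = 0.936, limma), with 0.12, -0.075 and 0.025 in mice 278, 279 and 281. The dimmer one gave -0.11 and was lower in every mouse (-0.031, -0.21 and -0.10), with overlapping groups.

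The members as a whole read slightly lower in the knockdown-labelled cells, by amounts that did not pass the test for any gene. Of 43 tested members 35 were lower and 8 higher, with a median difference of -0.056, where 50.0% of all 10824 genes were lower and their median was -0.00015. None passed an adjusted p of 0.05 in limma (0% of all genes), and the adjusted p-values of members were 0.771 or more. At unadjusted p below 0.05, where 5.84% of all genes lay, there was 1 member, Psma8. It was on the higher side, which held 3.96% of all genes, and no member was on the lower side, which held 1.88%. With mouse 279 left out 29 of 43 were lower and the median was -0.0085, where 4313 of 10824 genes were lower at a median of 0.029. With only the restored-labelled array of mouse 279 left out (5 arrays, no mouse term), 28 were lower at a median of -0.011. There 4413 of all genes were lower at a median of 0.024. With every array centred on its median, 41 of 43 were lower at a median of -0.16. In that setting 8116 of 10824 genes were lower and the median of all genes moved to -0.11. Centring shifts every gene on an array by the same amount, so it cannot change the distance of the members from all genes.

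That 1 array was the highest of the 6 for 35 of the 43 members, beside the 38.9% of all genes given above. In mouse 279 the median member difference was -0.15, in mouse 278 it was -0.052 and in mouse 281 it was 0.038. All genes gave medians of -0.044, 0.031 and 0.032 in the same order of mice. The members were therefore lower than the genes at large in mice 279 and 278, and close to them in mouse 281. Differences by mouse take the pairs of arrays as labelled, and arrays of mice 279 and 281 correlated better across these mice than within them. The part of the array's 3' over 5' ratio and of its neutrophil markers in these values was not tested.

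**Figure D1:**
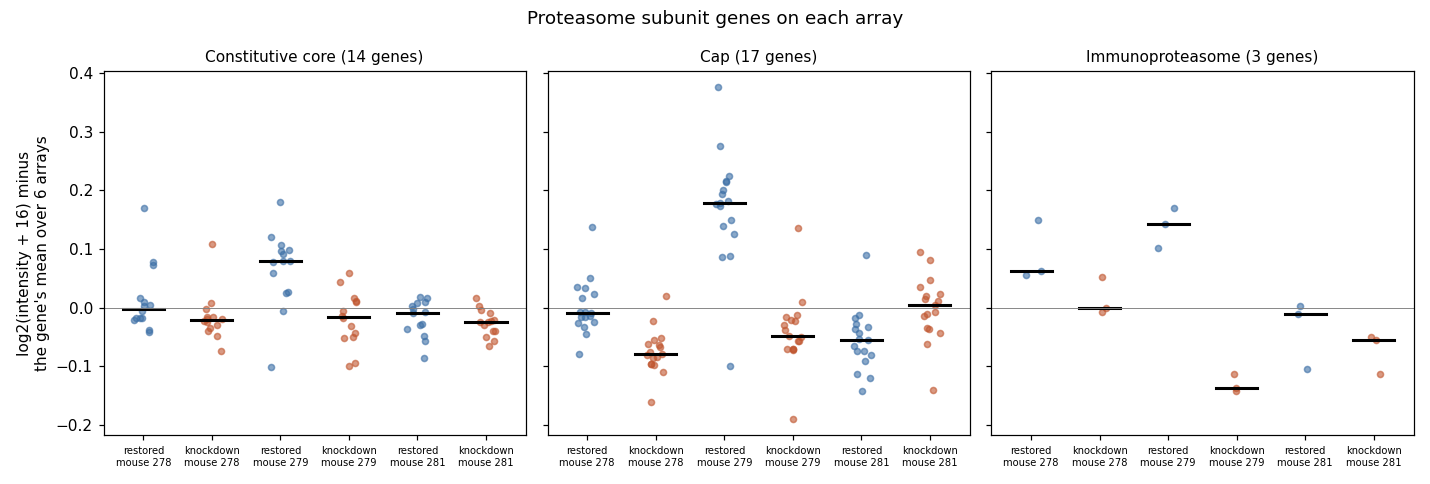
Each point is 1 gene on 1 array, as log2(intensity + 16) minus that gene's mean over the 6 arrays (vertical axis), for the constitutive core, the cap and the immunoproteasome; bars are medians, blue is restored-labelled and orange knockdown-labelled. The restored-labelled array of mouse 279 has the highest median in all 3 panels, 0.079 in the core, 0.18 in the cap and 0.14 in the immunoproteasome.

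The constitutive core was the steadier part. Of its 14 genes, Psma1 to Psma7 and Psmb1 to Psmb7, 11 were lower and 3 higher, with a median of -0.042 and a range from -0.11 to 0.021. The 95% intervals of all 14 lay between -0.32 and 0.22, that is, between 0.80-fold and 1.16-fold. Core medians were -0.033, -0.092 and -0.014 in mice 278, 279 and 281, and 9 of 14 genes were lower in mouse 281. Without mouse 279 the core median was -0.0089 with 13 of 14 lower, beside a median of 0.029 for all genes. With centred arrays the core median was -0.15 with 14 of 14 lower, where 8116 of all 10824 genes were lower.

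Among the alpha ring genes, Psma4 read 5689, 5690 and 5420 in the restored-labelled cells of mice 278, 279 and 281 and 5259, 5026 and 5276 in the knockdown-labelled cells. The groups did not overlap, and the difference was -0.11 ± 0.075 (adjusted p = 0.775, limma). Psma6, another gene of the ring, went the other way by little, reading 9180, 9375 and 8987 against 9110, 9314 and 9323, at 0.011 ± 0.071. Psma5 was at 0.021 ± 0.071 at its brightest probe set and at -0.071 at another, and both Psma5 and Psma6 turned to the lower side with centred arrays (-0.085 and -0.096). Psma1, Psma2, Psma3 and Psma7 lay between -0.064 and -0.036.

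The 3 catalytic beta subunits were at or below zero, with intervals that overlap and cross zero. Psmb5, which carries the chymotrypsin-like site, read 6633, 7160 and 6666 in the restored-labelled and 6368, 6170 and 6566 in the knockdown-labelled cells. These groups did not overlap, at -0.098 ± 0.081 (adjusted p = 0.790, limma), and the difference was -0.040 without mouse 279. Psmb6, which carries the caspase-like site, read 8816, 9285 and 8428 against 8618, 8610 and 8583. Its restored-labelled arrays lay on both sides of the knockdown-labelled ones, at -0.038 ± 0.074. Psmb7, which carries the trypsin-like site, read 7056, 7400 and 7344 against 7171, 7487 and 7141. The group means, 7267 and 7266, were nearly equal, and the difference of -0.000070 ± 0.070 had a 95% interval from -0.20 to 0.20. Of the structural beta subunits Psmb4 was at -0.097 ± 0.076, Psmb3 at -0.056, Psmb1 at -0.035 and Psmb2 at 0.013 (-0.094 with centred arrays).

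The immunoproteasome genes read between 4889 and 7700 on every array, and all 3 were lower in the knockdown-labelled cells without passing the test. Psmb8, the inducible counterpart of Psmb5, read 5494, 5949 and 5295 in the restored-labelled and 5282, 4889 and 4889 in the knockdown-labelled cells. The groups were apart by a narrow gap, lower in every mouse, with a difference of -0.15 ± 0.084 (adjusted p = 0.771, limma). A further probe set of Psmb8 read 4480 to 4664 on all 6 arrays and gave -0.015, and the mean over both gave -0.083. Psmb10, the counterpart of Psmb7, read 7284, 7700 and 6921 against 6941, 6340 and 6735. It was lower in every mouse by -0.069, -0.28 and -0.039, although the groups touched, at -0.13 ± 0.087 (adjusted p = 0.775, limma). Psmb9, the counterpart of Psmb6, read 6186, 5983 and 5188 against 5785, 5050 and 5368. It was lower in mice 278 and 279 and higher in mouse 281, at -0.097 ± 0.091 (adjusted p = 0.801, limma). The median of the 3 genes was -0.13, and -0.054 without mouse 279, -0.091 without its restored-labelled array and -0.24 with centred arrays. Their intervals together ran from -0.39 to 0.16, that is, from 0.77-fold to 1.12-fold.

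Each inducible gene was then set against its constitutive partner, as the difference between their within-mouse differences, which needs no comparison of levels between probe sets. Psmb8 minus Psmb5 gave 0.0022, -0.068 and -0.093 in mice 278, 279 and 281 (mean -0.053 ± 0.049, SD, n = 3 mice). Psmb9 minus Psmb6 gave -0.064, -0.14 and 0.023 (mean -0.059 ± 0.079). Psmb10 minus Psmb7 gave -0.093, -0.30 and 0.0010 (mean -0.13 ± 0.15). Each pair was lower in 2 of 3 mice. The exact two-sided sign-flip permutation test over 3 mice gave p = 0.5 for each of the 3 pairs (0.5 after Benjamini-Hochberg), and with 3 mice no p under 0.25 can be reached. No shift between inducible and constitutive subunits was detectable with 3 mice.

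**Figure D2:**
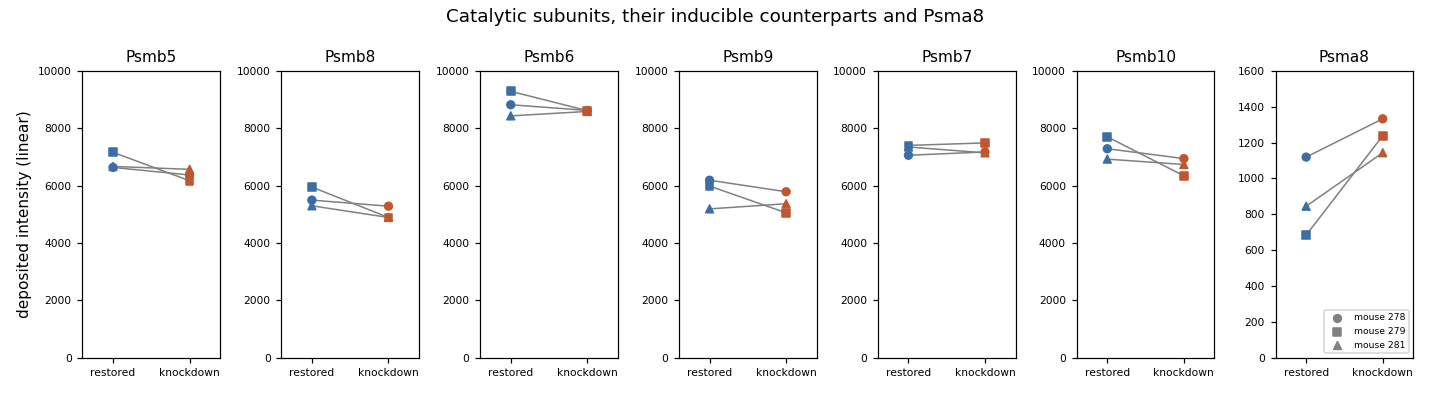
Deposited linear intensity (vertical axis, from 0) of the catalytic subunit genes, their inducible counterparts and Psma8 in restored-labelled (blue) and knockdown-labelled (orange) cells; each grey line joins the arrays of 1 mouse, and Psma8 has its own scale. Psmb8 reads lower in the knockdown-labelled cells of every mouse and Psma8 higher, while the Psmb7 means are 7267 and 7266.

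Psmb8 and Psmb9 lie in the MHC region of chromosome 17, where the gene order is Psmb9, Tap1, Psmb8, Tap2. TAP1 and TAP2 together form the transporter that carries proteasome products into the endoplasmic reticulum. Tap1 read 5134, 6160 and 4250 in the restored-labelled and 4679, 4363 and 4604 in the knockdown-labelled cells, at -0.17 ± 0.14, and Tap2 was at -0.28 ± 0.17. As with Psmb9, both were lower in mice 278 and 279 and higher in mouse 281. In the list of antigen processing partners 6 of 10 genes were lower and none reached unadjusted p below 0.05. Tapbpl, a TAP-binding relative of tapasin, had the smallest p, at -0.18 ± 0.085, and B2m, the light chain of MHC class I, was at 0.035 ± 0.069, higher in every mouse. Of 20 tested interferon pathway genes 9 were higher and 11 lower, none at unadjusted p below 0.05. The smallest p-values were those of Ifit1, at 0.51 ± 0.23, and Irf9, an interferon regulatory factor, at 0.19 ± 0.10. Irf1, a known activator of Psmb9, was at -0.059 ± 0.16, with -0.028, -0.43 and 0.28 in mice 278, 279 and 281.

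Of the tissue-restricted core genes, Psma8 had the widest difference of any member and Psmb11 was not above the filter. Psma8 encodes the alpha subunit known from spermatocytes. It read 1119, 684 and 845 in the restored-labelled and 1332, 1238 and 1143 in the knockdown-labelled cells. The groups did not overlap, as for 10.1% of all genes on the higher side, and the difference was 0.51 ± 0.14 (1.42-fold), with 0.25, 0.84 and 0.43 in the 3 mice. The adjusted p was 0.771 in limma, so it did not pass, and it was the member at unadjusted p below 0.05. Without mouse 279 the difference was 0.34, and without its restored-labelled array, the lowest of the 6, it was also 0.34 and no longer at unadjusted p below 0.05. It was not below that level with centred arrays either (0.40). The gene has 1 probe set here, and what else this probe set may read was not tested. Psmb11, the beta subunit of the thymic cortex that neighbours Psmb5 on chromosome 14, read 3.0 to 16.4 on all 6 arrays, below the filter intensity of 143.

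The cap differed more between arrays than the core did. Of 17 cap genes 15 were lower and 2 higher, with a median of -0.083 and a range from -0.22 to 0.055. The restored-labelled array of mouse 279 was the highest for 16 of the 17. Cap medians were -0.072 in mouse 278, -0.22 in mouse 279 and 0.075 in mouse 281, where 3 of 17 genes were lower. The cap thus lay below zero in 2 mice and above it in the other, while the core medians were below zero in all 3. Without mouse 279 the cap median was -0.0046 with 10 of 17 lower, and without that array -0.012 with 11 of 17 lower. The medians of all genes in these settings were 0.029 and 0.024. With centred arrays the cap median was -0.19 with 17 of 17 lower, where 8116 of all 10824 genes were lower. Whether cap and core differ from each other was not tested.

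**Figure D3:**
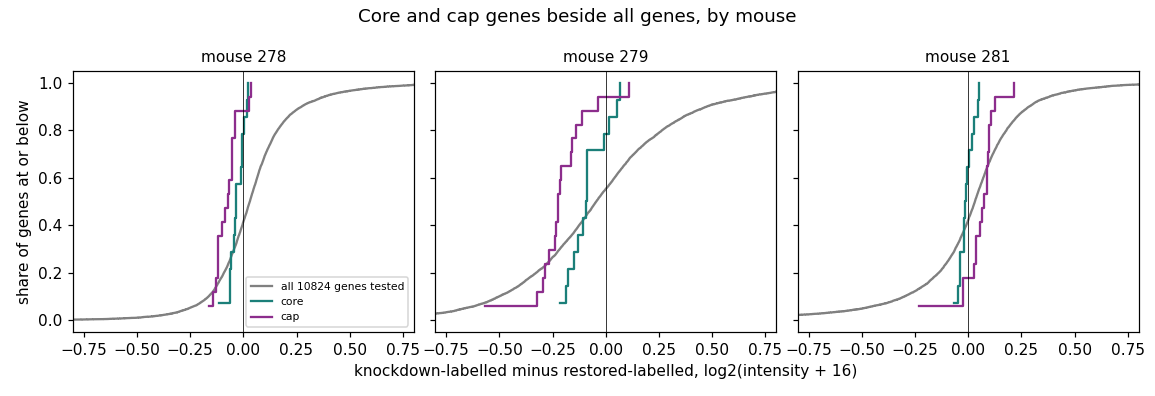
Cumulative share of genes (vertical axis) at or below each difference (horizontal axis, log2(intensity + 16), knockdown-labelled minus restored-labelled) in each mouse, for core, cap and all 10824 genes. In mouse 279 the cap median (-0.22) lies left of the core median (-0.092), and in mouse 281 it lies right of it (0.075 against -0.014). The cap and core curves cross in both mice.

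All 6 genes of the ATPase ring were lower, between -0.16 and -0.083. Psmc4 read 7275, 8113 and 7784 in the restored-labelled and 6919, 7246 and 6634 in the knockdown-labelled cells. It was lower in every mouse and its groups did not overlap, at -0.16 ± 0.076 (adjusted p = 0.771, limma). Its other probe set gave -0.20, and the difference was -0.15 without mouse 279. Psmc5 read 4812, 5497 and 4585 against 4431, 4474 and 4502, again without overlap, at -0.15 ± 0.089, but -0.073 without mouse 279. In all, 5 members had lower groups without overlap (Psma4, Psmb5, Psmb8, Psmc4 and Psmc5), of 43 tested, beside 5.08% of all genes. For Psmc1, Psmc2 and Psmc3 the sign turned in mouse 281 (0.097, 0.026 and 0.054). Other probe sets of Psmc1 (0.089) and Psmc6 (0.023 and 0.22) lay on the opposite side of the brightest ones (-0.087 and -0.099).

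The scaffold genes Psmd1 and Psmd2 and the ubiquitin receptor gene Psmd4 were lower in mice 278 and 279 and higher in mouse 281. Psmd2 read 6443, 8048 and 6240 in the restored-labelled and 6213, 6424 and 6662 in the knockdown-labelled cells, at -0.094 ± 0.11. The restored-labelled array of mouse 279 was the highest, and without that mouse the difference was 0.021. Psmd1 was at -0.067 ± 0.090 and Psmd4 at -0.10 ± 0.10, with 0.022 and -0.015 at its other probe sets.

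In the lid 6 of 8 genes were lower. Psmd13, a structural subunit, read 4441, 5631 and 4098 in the restored-labelled and 4057, 3800 and 4207 in the knockdown-labelled cells. Its difference of -0.22 ± 0.15 (adjusted p = 0.775, limma) was the lowest of the members. It came mostly from mouse 279 (-0.57), and without that mouse it was -0.046. Other probe sets of Psmd13 gave -0.19 and, at a dimmer one, 0.14, and the mean over its probe sets gave -0.089. Psmd14, the deubiquitinase of the lid, was at -0.081 ± 0.096, Psmd12 at -0.078 ± 0.10, Psmd6 at -0.044 and Psmd8 at -0.038. Psmd11, whose level is known to limit cap assembly in stem cells, was at -0.011 ± 0.087, and its other probe sets ran from -0.069 to 0.27. Psmd3 and Psmd7 were the higher ones, at 0.033 ± 0.075 and 0.055 ± 0.10, but both lay below zero with centred arrays (-0.074 and -0.052), and other probe sets of Psmd7 gave -0.25 and -0.32.

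**Figure D4:**
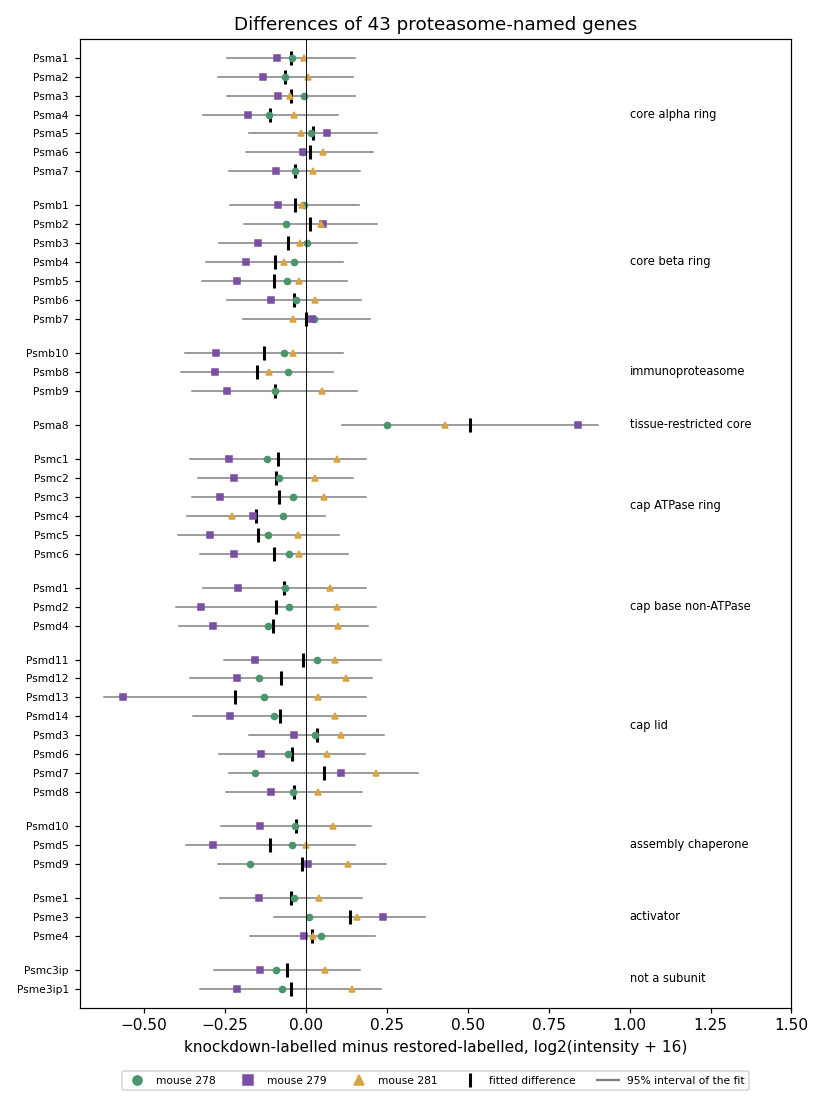
Fitted difference of each of the 43 tested members (black bar) with its 95% interval (grey line) and the differences of the 3 mice (symbols), on the log2(intensity + 16) scale, ordered by role. Intervals of all members but Psma8 (0.11 to 0.90) cross zero, and the purple squares of mouse 279 lie leftmost for most genes.

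Psmd5, Psmd9 and Psmd10 encode chaperones that assemble the cap base and are not part of the finished cap. Psmd5 was at -0.11 ± 0.094, with -0.043, -0.29 and -0.0011 in the 3 mice, Psmd10 at -0.031 and Psmd9 at -0.013. Other assembly factors and the inhibitor gene Psmf1 were taken as a further list: 7 of 7 tested genes were lower, at a median of -0.077, and none had an unadjusted p below 0.05. As in the cap, their medians were -0.073, -0.25 and 0.087 in mice 278, 279 and 281, and the restored-labelled array of mouse 279 was the highest for all 7. Psmf1 was at -0.14 ± 0.082, Psmg3, a chaperone of the alpha ring, at -0.13 ± 0.085, and Pomp, the maturation factor of the core, at -0.027 ± 0.073. In a list of proteins linked to the proteasome, mostly to its cap, 8 of 11 tested genes were higher, none at unadjusted p below 0.05. Ube3c, a ubiquitin ligase of the cap, was at 0.15 ± 0.074 and Txnl1, a thioredoxin-like cap protein, at 0.098 ± 0.071. Of the ubiquitin list 1 of 6 genes was tested, Ube2d3 at 0.10 ± 0.078.

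The activators, which open the core without the ATPase cap, went both ways. Psme1, part of the interferon-inducible activator of the immunoproteasome, read 10579, 11193 and 10156 in the restored-labelled and 10307, 10118 and 10446 in the knockdown-labelled cells, at -0.047 ± 0.079. Its partner Psme2 has a probe set that names a further gene, so it is outside the rule. Psme3, the nuclear relative, read 4025, 3203 and 3695 against 4052, 3781 and 4127. It was higher in every mouse with overlapping groups, at 0.14 ± 0.084 (adjusted p = 0.771, limma), but another probe set gave -0.11. Psme4 was at 0.020 ± 0.070. Psmc3ip, a meiotic recombination factor, and Psme3ip1 match the rule by name and are not subunits, at -0.059 ± 0.081 and -0.048 ± 0.10.

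The regulators of proteasome gene expression did not pass either. Nfe2l1 read 3570, 3152 and 3614 in the restored-labelled and 4022, 3990 and 4017 in the knockdown-labelled cells. It was higher in every mouse and the groups did not overlap, as for 10.1% of all genes on the higher side. The difference was 0.22 ± 0.081 (adjusted p = 0.771, limma). Mafg, one of the small MAF partners of NFE2L1, went the other way, reading 1404, 1714 and 1586 against 1365, 1299 and 1352. It was lower in every mouse, also without overlap (5.08% of all genes on the lower side), at -0.22 ± 0.10. Of 8 tested regulators 5 were higher and 3 lower, none at unadjusted p below 0.05, and Nfe2l2 was at 0.044 ± 0.12.

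Over the members, 22 had more than 1 probe set above the filter. Of their 34 other probe sets 18 had the sign of the brightest one, none was at unadjusted p below 0.05 in limma, and the widest gap to the brightest was 0.38, at Psmd7. Of all members 12 were lower in every mouse, where 12.4% of all genes were, and 2 were higher in every mouse (Psma8 and Psme3), where 19.8% were.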

How the data were processed

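The values are linear intensities of 45101 probe sets as deposited by the authors, whose summary and normalization are not given in the sources used. Per the labels' protocols the RNA went through NuGEN Ovation V2 amplification before hybridization. The 64 control probe sets were dropped. Precision rests on how many mice there are, 3 here, and not on the 6 arrays as such. After log2(intensity + 16), probe sets whose mean over the 6 arrays reached the median (an intensity of 143) were kept, and the brightest named one stood for its gene (10824 genes). The probe table has older annotation; all 44 member identifiers matched RefSeq genes of GRCm38.p6 with no symbol changed. The fit was limma 3.58.1 in R 4.3.3 with the mouse as a fixed block, Benjamini-Hochberg adjustment over all genes and a threshold of 0.05. It was run on simulated data whose planted changes were larger than those of the members. The recovery of changes as small as theirs was not tested. Figures were drawn with matplotlib 3.10.9.

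Members and lists were chosen with earlier results of these data known, so no p is adjusted over them alone and no list is tested. Named members are the catalytic and inducible subunits and activators, the 5 with the smallest p in each direction, those whose groups do not overlap, and the brightest and dimmest of each role. Further ones are given by role, some chosen after their values were seen. Of related lists, the 2 genes with the smallest p are named, with others (Tap1, Tap2, B2m, Irf1, Pomp and Nfe2l2) for their known role. Pairing rests on the labels, which name 1 mouse for each couple of arrays. Deviations from group means correlated at 0.44, -0.17 and -0.29 within mice 278, 279 and 281. Limma p-values and standard errors rest on the spread between 3 mice, moderated for each gene towards the variance of all genes (3.97 degrees of freedom in total). They are thus not the spread of that gene between the mice alone.

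Alternatives were quantile normalization, centring on the median, no block, a random block, no filter, the upper 30%, the mean over probe sets, moderation with a trend and robustly, array weights, added values of 1 and 64, leaving out each mouse, and 5 arrays.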

Additional observations from a re-analysis of the deposited data

How the results depend on the processing

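No gene and no member passed an adjusted p of 0.05 under any of the 15 alternatives (limma), where between 258 and 1083 of all genes, against 632, reached unadjusted p below 0.05. The extremes were 258 without mouse 278 and 1083 with no filter, and it was 971 with centred arrays. With no replicate block the count was 634 and no call changed. Members at unadjusted p below 0.05 numbered 1, but 2 with centred arrays (Psmb8 and Psmc4), 2 with trend and robust settings (Psma8 and Psmc4) and 0 with 5 arrays. Centred arrays moved the medians to -0.16 for all members and -0.15 for the core (14 of 14 lower). They moved to -0.19 for the cap (17 of 17 lower) and -0.24 for the immunoproteasome genes. The median of all genes moved to -0.11, with 8116 of 10824 lower, as centring shifts all genes alike. Leaving out each mouse gave medians from -0.098 to -0.0085 for all members and -0.065 to -0.0089 for the core. The cap gave -0.15 to -0.0046 and the immunoproteasome genes -0.17 to -0.054, with -0.025 to 0.073 for Erg. The end nearest zero was always that without mouse 279, except for Erg. The median of all genes was 0.029 without mouse 279, -0.016 without mouse 278 and -0.0045 without mouse 281.

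Of 420 single-gene values 33 turned sign. With centred arrays these were Psma5 (-0.085), Psma6 (-0.096), Psmb2 (-0.094), Psmd3 (-0.074), Psmd7 (-0.052) and Psme4 (-0.087), and Erg was at -0.083. With the mean over probe sets they were Psma5 (-0.025), Psma6 (-0.019) and Psmd7 (-0.17), and Erg was at -0.045. Psmb7 was at 0.0018 after quantile normalization and Psmd9 at 0.013 with array weights, whose estimation stopped short of its convergence tolerance. With 5 arrays Psmb1 (0.0049), Psmb2 (-0.035), Psmb7 (0.013), Psmc3 (0.0035), Psmd2 (0.020), Psmd6 (0.0080), Psmd9 (0.020) and Psme3ip1 (0.0013) turned. Without mouse 278 Psmd9 was at 0.067. Without mouse 279 the turned values were Psma5 (-0.00021), Psmb2 (-0.0074), Psmc3 (0.0074), Psmd1 (0.0047), Psmd2 (0.021), Psmd6 (0.0047), Psme1 (0.0015) and Psme3ip1 (0.035). Without mouse 281 they were Psma6 (-0.010), Psmb2 (-0.0045), Psmb7 (0.020), Psmd3 (-0.0044) and Psmd7 (-0.025). At the far end of leaving out each mouse, these genes reached 0.040 (Psma5), -0.14 (Psmd1), -0.19 (Psmd2), -0.084 (Psmd9), -0.092 (Psme1) and -0.14 (Psme3ip1) without mouse 281, and 0.022 (Psma6), 0.050 (Psmb2), -0.012 (Psmb7) and 0.16 (Psmd7) without mouse 278. The causes were not tested. With 3 mice, differences of the size seen in most members lie within the error of the fit.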
